A study of Homo sapiens with 24 samples.

Results

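TFF1 and 9 other genes known to be induced by estrogen (TFF3, GREB1, PDZK1, CA12, MYB, IGFBP4, RET, CXCL12 and C1orf64) were examined in 3 ER+ human breast cancer lines cultured under low or high glucose. The 10 genes are 10 of the 18889 genes of the deposited table, and each had a single row. They were chosen by symbol, with their levels and their high- versus low-glucose differences in these same cultures already known. Those values are therefore given as a description, with no test, and nothing is supported by them.

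The cells came from the American Type Culture Collection and are labelled ER positive: MDA-MB-175, HCC1500 and ZR-75-30, the last written ZR7530 in the labels. Every line was kept for 48 h in medium holding either 5 mM (low) or 25 mM (high) glucose, with 4 cultures per condition and 24 RNA-Seq libraries in all. The study's methods state that the lines were grown in RPMI medium with fetal bovine serum, conditioned in low glucose, and then kept without serum during the treatment. No estrogen, antiestrogen or transgene is named for any group, and an osmotic control is not stated for these cultures. Each line is 1 genetic background, and the labels name the cultures only as replicates, so error terms measure the spread between these cultures, which may be technical. The comparison asks how hyperglycemia-like glucose bears on gene expression in each line.

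Estrogen receptor α, encoded by ESR1, is a ligand-activated transcription factor that binds estrogen response elements in DNA and recruits coactivators to the genes it controls. TFF1, also called pS2, is the classic gene induced by estrogen in ER+ breast cancer cells, and it encodes a small secreted trefoil peptide. The pioneer factors FOXA1 and GATA3 keep much of the receptor's chromatin accessible in luminal breast cells.

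Values are normalized read counts as deposited. Dividing each by the smallest nonzero value of its library returned whole reads, from 9140024 to 17998819 per library, and 1 read was worth 0.318 to 0.764 normalized read counts. A count of 3 reads, taken as the limit of detection, lay between 0.95 and 2.29 normalized read counts. All 8 luminal markers fixed for the check (ESR1, GATA3, FOXA1, KRT8, KRT18, KRT19, EPCAM and XBP1) averaged at least 10 in each of the 6 groups, with a summed level between 33571 and 78548 per culture. Of 13 markers of other cell types (basal, stromal, immune and endothelial), 8 had a row, and their summed level lay between 116 and 266. A mean of at least 10 was reached by 6 of these 8 in low-glucose MDA-MB-175 cultures and by 7 in high-glucose ones. The other lines had only 1 such marker per group, except for 2 in high-glucose ZR-75-30. In bulk RNA, fewer cells expressing a gene and less RNA per cell cannot be told apart.

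The library HCC1500 high glucose 3 stood apart from the other 3 high-glucose cultures of its line. Its shift tended to be lower in genes with more exon bases over the 10 genes, though not in strict order. TFF3, with 922 bases of exon, read 8401 against 1941 to 2118 in the others. TFF1, with 492 bases, read 1951 against 620 to 681, and IGFBP4, with 2205 bases, read 3581 against 1363 to 1431. At the other end GREB1, with 12432 bases, read 1428 against 2434 to 2533. On the log2 scale these differences were 2.05 for TFF3, 1.59 for TFF1, 1.35 for IGFBP4 and -0.79 for GREB1, while CA12 (-0.05), RET (-0.01) and CXCL12 (0.15) moved little. The remaining genes stood at 0.92 (C1orf64, 3039 bases), 0.40 (PDZK1, 2480 bases) and -0.20 (MYB, 5497 bases). Across the 10 genes, Spearman's rho between exon length and this difference was -0.89, and it was -0.55 across 12521 genes with a mean of at least 10. These are descriptions across genes of 1 library, and genes are not replicates. The 334 genes with under 1000 exon bases had a median difference of 1.02, with 20.4% of them above TFF1 and 4.19% above TFF3, against a median of 0.29 over all 12521. HCC1500 differences between conditions are therefore given with and without this library, and its part in the results was not tested further.

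**Figure D1:**
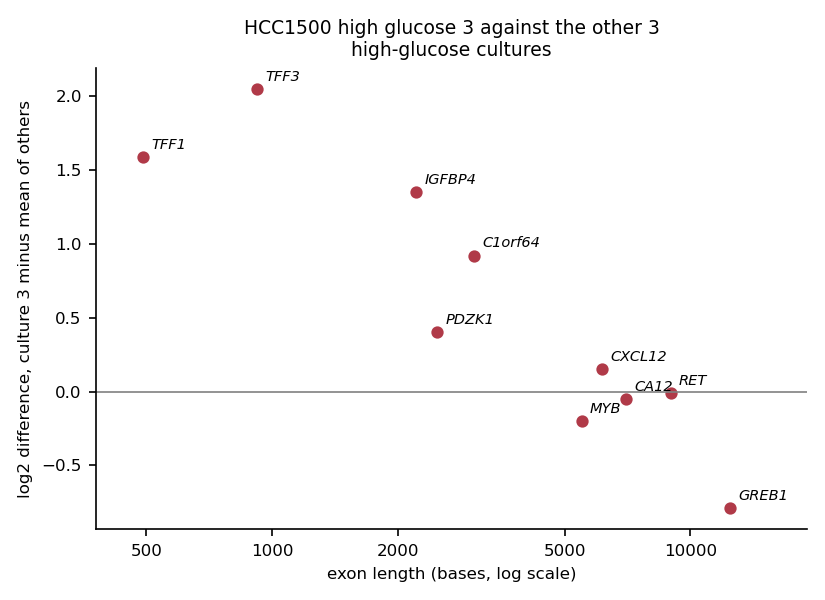
Each point is 1 of the 10 genes, with exon length in bases on a log axis and the log2 difference between HCC1500 high glucose 3 and the mean of the other 3 high-glucose cultures. The shortest genes, TFF1 and TFF3, sit at 1.59 and 2.05, and the longest, GREB1, sits at -0.79.

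TFF1 (ENSG00000160182; GRCh37 chr21:43782391-43786644, minus strand) was lower in high glucose in ZR-75-30, by far more than its spread. Its low-glucose cultures read 1858, 1785, 1830 and 1739, and its high-glucose cultures read 382, 390, 390 and 404. Every high-glucose culture lay well below every low-glucose culture, and the means were 1803 ± 51.9 and 391 ± 9.08 (SD, n = 4 each), a ratio of 0.217 and a log2 difference of -2.20 ± 0.04 (SE). In the same comparison the summed level of the 8 luminal markers went from 71136 to 75772 per culture down to 49848 to 56595. KRT8, KRT18, KRT19 and XBP1 made up most of that sum, and EPCAM alone of the 8 went up, from 1318 ± 52.2 to 1536 ± 23.7. The summed level of the markers of other cell types went from 116 to 136 up to 123 to 145. COL1A1 made up most of the latter (105 ± 7.39 and 90.2 ± 8.25), COL3A1 and CDH5 had 0 reads in every low-glucose culture and COL1A2 in every high-glucose culture, and CD68, a lysosomal protein gene used as a macrophage marker, went from 5.66 ± 1.06 to 37.7 ± 4.36. CD68 shares 1765 of its 2163 exon bases with other annotation on the same strand, so its reads may not be its own alone. The part of these shifts in the ZR-75-30 results was not tested.

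In MDA-MB-175, which had the highest TFF1 level, the low-glucose cultures read 2734, 2429, 2561 and 2241 and the high-glucose cultures 2345, 2216, 2054 and 2330. The groups overlapped, with means of 2491 ± 209 and 2236 ± 134 and a log2 difference of -0.15 ± 0.06. In HCC1500, low glucose gave 715, 726, 751 and 715, and high glucose gave 681, 620, 1951 and 644, where 1951 is the library that stood apart. With it the log2 difference was 0.23 ± 0.34 and the groups overlapped. Without it the direction turned, to -0.17 ± 0.04, with a high-glucose mean of 649 ± 30.8 (n = 3) below the low-glucose mean of 727 ± 17.0. The median of all genes was itself -0.12 in that comparison, and rescaling by the median of ratios brought the TFF1 difference to -0.05.

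TFF3, which encodes the intestinal trefoil peptide and lies on the same chromosome arm (GRCh37 chr21:43731777-43735519, minus strand), was well expressed in each line. In MDA-MB-175 its low-glucose cultures read 14577, 13286, 13993 and 10899 and its high-glucose cultures 10426, 8824, 8809 and 9287. The groups did not overlap (10899 in the lowest low-glucose culture against 10426 in the highest high-glucose culture), and the log2 difference was -0.49 ± 0.08. In ZR-75-30, TFF3 went from 10043, 9949, 10010 and 8785 to 5581, 5220, 5168 and 4242, a log2 difference of -0.95 ± 0.07. In HCC1500 it went from 3233, 3455, 3626 and 3500 to 2118, 1941, 8401 and 2050. The difference was -0.25 ± 0.43 with all cultures and -0.76 ± 0.04 without the library that stood apart. TFF3 was thus lower in high glucose in each line once that library was left out.

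TFF2, the third trefoil gene of this cluster, lies between TFF3 and TFF1 (GRCh37 chr21:43766466-43771106) and behaved differently. It rose in MDA-MB-175, from 21.2 ± 3.57 to 63.8 ± 5.6 (log2 change 1.55 ± 0.14; limma, adjusted p = 7.74e-07). In HCC1500 it was near the limit of detection, at 3.41 ± 0.72 in low glucose and 2.30 ± 1.04 in high glucose without the library that stood apart, and in ZR-75-30 it averaged 0.142 and 0.381. The flanking genes were read for their position only. In ZR-75-30, where TFF1 differed most, ABCG1, a sterol exporter that precedes the cluster on the map, went from 399 ± 23 to 766 ± 41.5. TMPRSS3, a membrane serine protease on the other side of TFF1, went from 540 ± 22.6 to 456 ± 27.8. Neither gene's values overlapped between conditions, and neither shared the size of the TFF1 difference.

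GREB1, an estrogen receptor cofactor that estrogen itself induces, was higher in high glucose in the 2 lines that expressed it well. In ZR-75-30 its low-glucose cultures read 201, 240, 205 and 205 and its high-glucose cultures 317, 300, 321 and 331, a log2 difference of 0.58 ± 0.06. In HCC1500 it went from 1352, 1345, 1292 and 1369 to 2533, 2442, 1428 and 2434. No high-glucose culture fell within the low-glucose range, and the difference was 0.68 ± 0.18 with the library that stood apart and 0.88 ± 0.03 without it. In MDA-MB-175 GREB1 was low, at 14.3 ± 1.88 and 13.5 ± 4.65, and the groups overlapped.

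PDZK1, a scaffold protein that anchors membrane transporters, was expressed well in HCC1500. There it read 509, 473, 474 and 462 in low glucose and 581, 560, 751 and 565 in high glucose, without overlap, and the log2 difference was 0.35 ± 0.11 with all cultures and 0.25 ± 0.04 without the third high-glucose culture. In ZR-75-30 and MDA-MB-175 it averaged 2.35 to 5.84, close to the limit of detection. The ZR-75-30 difference of 0.94 ± 0.35 rests on 2 to 16 reads per library.

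CXCL12, the chemokine that binds CXCR4 and CXCR7, was well expressed in HCC1500 and near or below the limit of detection in the other lines. Its low-glucose cultures read 589, 601, 554 and 593 and its high-glucose cultures 1380, 1373, 1529 and 1370. The groups lay far apart, with a log2 difference of 1.27 ± 0.07 with all cultures and 1.23 ± 0.03 without the third high-glucose culture, the highest positive differences of the 10 genes in any line. In MDA-MB-175 it averaged 3.21 ± 1.56 and 5.80 ± 1.72 and the groups overlapped. In ZR-75-30 it had 0 reads in all 8 cultures, which allows a level of up to 2.29.

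IGFBP4, a secreted protein that binds insulin-like growth factors, differed in direction between lines. In MDA-MB-175 it read 294, 305, 291 and 294 in low glucose and 257, 229, 247 and 244 in high glucose, a log2 difference of -0.28 ± 0.05. In ZR-75-30 it went the other way, from 723, 659, 693 and 694 to 1004, 1000, 1091 and 927, a difference of 0.54 ± 0.05. In HCC1500 it went from 835, 866, 867 and 830 to 1363, 1415, 3581 and 1431, a difference of 1.06 ± 0.29 with all cultures and 0.72 ± 0.03 without the library that stood apart. Values did not overlap between conditions in any of the 3 lines. The difference between lines was not tested.

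CA12, a membrane carbonic anhydrase, also differed in direction, with smaller differences. It went from 1780, 1874, 1837 and 1752 to 2138, 2090, 2036 and 2054 in MDA-MB-175 (log2 difference 0.20 ± 0.04) and from 2310, 2375, 2393 and 2323 to 2547, 2507, 2562 and 2436 in ZR-75-30 (0.10 ± 0.03). In HCC1500 it was lower in high glucose, from 3424, 3451, 3434 and 3395 to 2423, 2412, 2309 and 2343, a difference of -0.53 ± 0.07, or -0.52 ± 0.02 without the third high-glucose culture. The 3 low-glucose levels stood in the order HCC1500, ZR-75-30, MDA-MB-175, and in high glucose the 3 lines averaged 2372, 2513 and 2079, closer together than in low glucose.

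MYB, RET and C1orf64 were lower in high glucose in each of the 3 lines, with or without the library that stood apart. The share of all genes called lower in each line is given below, with the fit over all genes. MYB, a transcription factor of proliferating progenitor cells, read 232, 226, 195 and 218 in low-glucose MDA-MB-175 cultures and 118, 140, 143 and 136 in high-glucose ones, a log2 difference of -0.69 ± 0.08. In ZR-75-30 it went from 136, 154, 144 and 139 to 89.1, 101, 88.8 and 89.8 (-0.63 ± 0.08). In HCC1500 it went from 516, 483, 487 and 462 to 389, 403, 350 and 418, a smaller difference of -0.32 ± 0.08, or -0.27 ± 0.04 without the third high-glucose culture. The median of all genes was itself -0.06 in HCC1500, or -0.12 without that culture. MYB shares 103 of its 5497 exon bases with MYB-AS1 on the opposite strand, and reads of the 2 cannot be told apart without strand.

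RET, the receptor tyrosine kinase for ligands of the GDNF family, went from 529, 547, 549 and 492 to 317, 312, 313 and 332 in MDA-MB-175 (log2 difference -0.73 ± 0.05). HCC1500 showed a difference of like size, from 453, 460, 456 and 441 to 247, 296, 265 and 260 (-0.76 ± 0.08, and -0.76 ± 0.05 without the third high-glucose culture). In ZR-75-30, where RET was lowest, it went from 98.1, 117, 120 and 101 to 67.2, 97.9, 93.1 and 89.8, and the groups were parted by a gap of 98.1 against 97.9 only (-0.33 ± 0.11).

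C1orf64, also named SRARP for its tie to steroid receptors, showed the largest negative difference of the 10 genes in any line. In HCC1500 its low-glucose cultures read 90.8, 99.7, 80.9 and 87.4 and its high-glucose cultures 16.5, 10.4, 21.5 and 7.39, from 16 to 29 reads per library. The ratio of means was 0.156 and the log2 difference -2.70 ± 0.29, or -2.93 ± 0.19 without the third high-glucose culture. MDA-MB-175 went from 36.9, 38.2, 33.6 and 27 to 19.6, 15.9, 22.3 and 17.9 (-0.81 ± 0.17). ZR-75-30, which had the highest level, went from 873, 914, 870 and 778 to 692, 760, 754 and 684 (-0.25 ± 0.05), with no overlap. The gene shares 466 of its 3039 exon bases with a gene on the opposite strand.

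**Figure D2:**
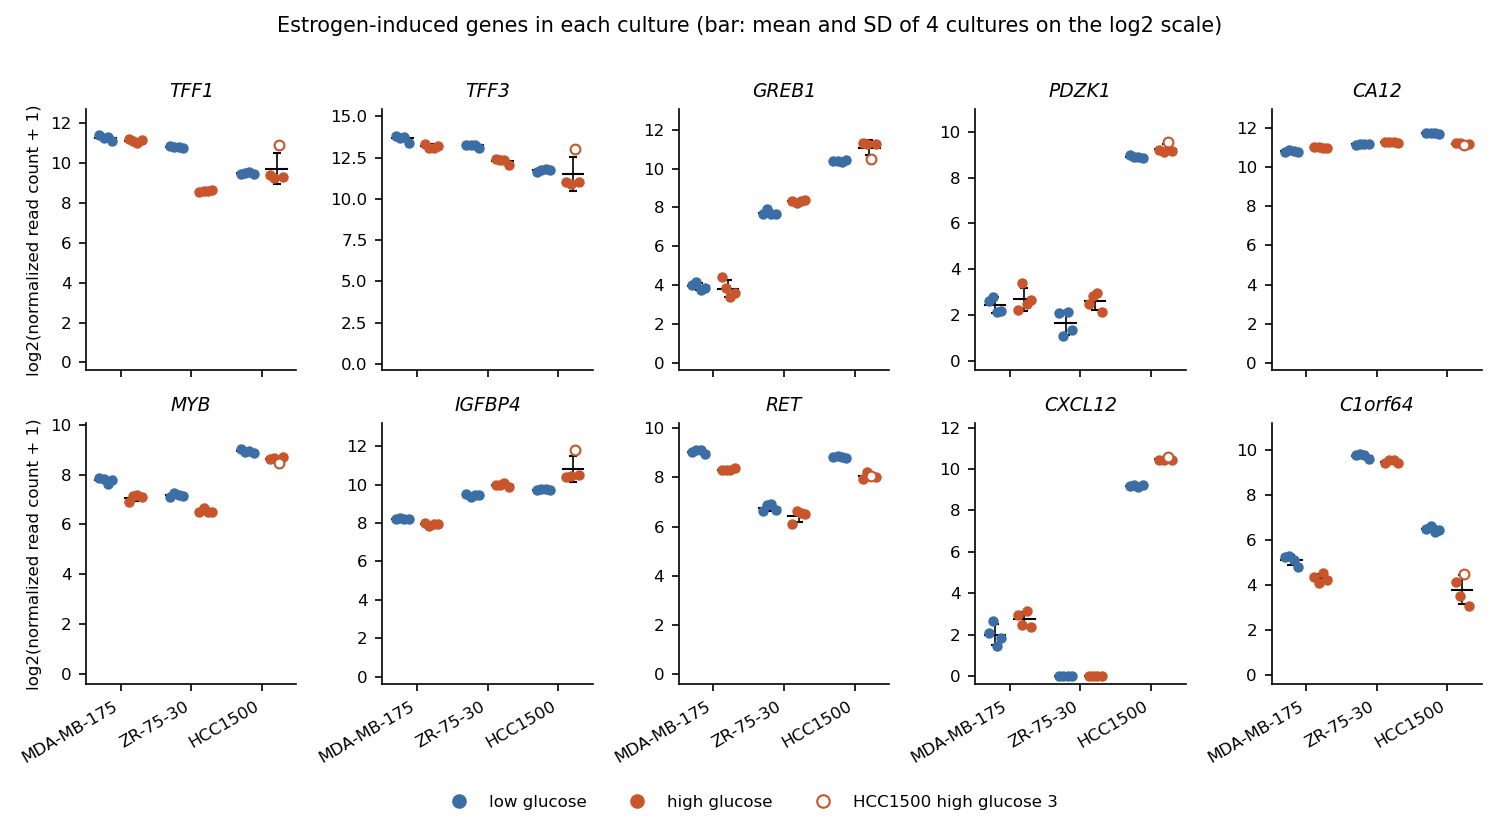
Each panel is 1 gene and each point 1 culture, with log2(normalized read count + 1) on the vertical axis, low glucose in blue and high glucose in orange. Horizontal bars and whiskers give the mean and SD of the 4 cultures on that scale, and the open point is HCC1500 high glucose 3. TFF1 in ZR-75-30 and C1orf64 in HCC1500 show the widest gaps between conditions, and the open point lies above its group for TFF1, TFF3 and IGFBP4 and below it for GREB1.

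The promoters of the 3 genes that were lower in every line are shown, with that of CXCL12, which was higher in HCC1500. The 3 genes differed in size of difference between lines, and CXCL12 was well expressed in HCC1500 only. These promoters were picked with the values already known. RefSeq promoter windows (GRCh38.p14, from 250 bases before to 50 after a start site) matched 7 of the 10 genes, with 2 windows each for PDZK1 and RET. TFF1, TFF3 and GREB1 have no entry. For RET the window with the lower coordinates is printed. Capitals mark each match, on either strand, to the letters searched: the arm of an estrogen response element (GGTCA), the TATA box (TATAAA), the GC box (GGGCGG), the AP-1 site (TGANTCA) and the forkhead site (TGTTTAC).
C1orf64 (GRCh38.p14, chr1:16003986-16004285, plus strand): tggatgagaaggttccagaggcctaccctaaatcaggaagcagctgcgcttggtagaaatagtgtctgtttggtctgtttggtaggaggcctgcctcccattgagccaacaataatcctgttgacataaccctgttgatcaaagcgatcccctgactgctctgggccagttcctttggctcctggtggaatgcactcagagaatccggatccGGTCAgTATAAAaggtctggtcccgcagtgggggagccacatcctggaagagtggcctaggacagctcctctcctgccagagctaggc
MYB (GRCh38.p14, chr6:135181058-135181357, plus strand): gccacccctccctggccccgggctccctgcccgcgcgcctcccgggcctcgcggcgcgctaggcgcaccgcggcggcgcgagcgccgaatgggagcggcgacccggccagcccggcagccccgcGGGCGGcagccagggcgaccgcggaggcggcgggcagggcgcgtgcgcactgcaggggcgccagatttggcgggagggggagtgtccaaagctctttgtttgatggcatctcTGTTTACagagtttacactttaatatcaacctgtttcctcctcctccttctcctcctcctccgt
RET (GRCh38.p14, chr10:43076819-43077118, plus strand): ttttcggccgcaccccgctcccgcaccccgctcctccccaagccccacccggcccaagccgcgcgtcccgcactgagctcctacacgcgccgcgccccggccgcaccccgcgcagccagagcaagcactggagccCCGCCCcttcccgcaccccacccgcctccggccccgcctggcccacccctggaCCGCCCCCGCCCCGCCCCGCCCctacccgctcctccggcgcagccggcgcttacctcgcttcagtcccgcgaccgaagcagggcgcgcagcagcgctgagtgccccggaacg
CXCL12 (GRCh38.p14, chr10:44385048-44385347, minus strand): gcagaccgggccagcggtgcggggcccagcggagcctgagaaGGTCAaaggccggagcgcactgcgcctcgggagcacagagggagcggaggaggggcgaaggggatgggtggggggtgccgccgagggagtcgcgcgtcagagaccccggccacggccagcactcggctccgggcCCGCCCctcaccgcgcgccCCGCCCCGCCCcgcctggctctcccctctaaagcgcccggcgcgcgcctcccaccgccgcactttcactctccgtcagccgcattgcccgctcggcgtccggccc

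A full estrogen response element, searched as GGTCA and TGACC parted by 3 bases, was in none of the windows of the 7 genes and in 0.057% of all 35116 windows. The single arm, which is contained in the full element, was found for 4 of the 7 genes (PDZK1, CA12, CXCL12 and C1orf64) against 37.4% of all windows. In C1orf64 it starts 38 bases before the start site and is followed at 32 bases by a TATA box. The TATA box was found for 2 genes (11.5% of all windows), the GC box for 5 (45.0%), the forkhead site for MYB alone, 14 bases before the start site (3.42%), and the AP-1 site for 0 (7.71%). These are matches of letters in short windows. They do not show binding, and no match says only that these letters are not in the window.

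Per kilobase of exon, the order of the 10 genes changed from line to line. In low glucose TFF3 and TFF1 led in each line. HCC1500 held TFF3 at 3746 normalized read counts per kilobase, against 10517 for ZR-75-30 and 14305 for MDA-MB-175, and in the same order of lines TFF1 stood at 1478, 3664 and 5063. CA12 came next, at 490, 336 and 259. IGFBP4 stood at 385, 314 and 134, and GREB1 at 108, 17.1 and 1.15. Between lines, in low glucose, the 4 cultures of MDA-MB-175 and ZR-75-30 did not overlap for 9 of the 10 genes, the exception being PDZK1, against 63.5% of all genes compared. MDA-MB-175 and HCC1500 did not overlap for 10 of 10 (74.5% of all genes), nor did ZR-75-30 and HCC1500 (74.5%). In high glucose the library that stood apart was left out, and the share of all genes was not counted. The genes that overlapped there were PDZK1 between MDA-MB-175 and ZR-75-30 and C1orf64 between MDA-MB-175 and HCC1500. Since the lines' levels were among the values that chose the genes, these counts are a description.

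GREB1, PDZK1 and CXCL12 separated the lines most. GREB1 in low glucose was 6.46 log2 units higher in HCC1500 than in MDA-MB-175 and 2.65 higher than in ZR-75-30. PDZK1 was 6.46 and 7.23 higher in HCC1500 than in MDA-MB-175 and ZR-75-30. In low glucose TFF1 and TFF3 had the reverse order of GREB1, with MDA-MB-175 above ZR-75-30 above HCC1500. For TFF1, ZR-75-30 and HCC1500 changed places in high glucose. There TFF1 was 0.73 log2 units higher in HCC1500 without the third culture than in ZR-75-30, with no overlap.

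In the fit over all genes (limma on log2 values, a call being an adjusted p under 0.05), 6 of the 10 genes were called in MDA-MB-175, 1 higher and 5 lower, where 11.9% of all genes were called higher and 13.7% lower. In ZR-75-30, 4 were called higher and 5 lower of 9 tested, against 23.4% and 22.7% of all genes. In HCC1500, 3 were called higher and 4 lower of 10, against 7.46% and 13.0%. Without the third high-glucose culture it was 4 higher and 6 lower, against 20.9% and 37.7%. Values did not overlap between conditions for 6 of 10 genes in MDA-MB-175 (26.6% of all genes), 9 of 9 in ZR-75-30 (42.0%), 8 of 10 in HCC1500 (32.4%) and 10 of 10 without the third high-glucose culture (58.1%). Of 9 tested in all 3 lines, 3 were called lower in each (MYB, RET and C1orf64), against 3.32% of all genes. None was called higher in each, against 1.81% of all genes. Without the third high-glucose culture of HCC1500, 4 were called lower in each (TFF3 besides), against 6.74% of all genes. The contrast chose the genes, so nothing is read from these counts. The median log2 difference of the 10 genes was -0.22 in MDA-MB-175 (-0.02 over all genes), -0.25 in ZR-75-30 (0.01), and -0.01 in HCC1500 (-0.06), or -0.22 without the third high-glucose culture (-0.12).

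**Figure D3:**
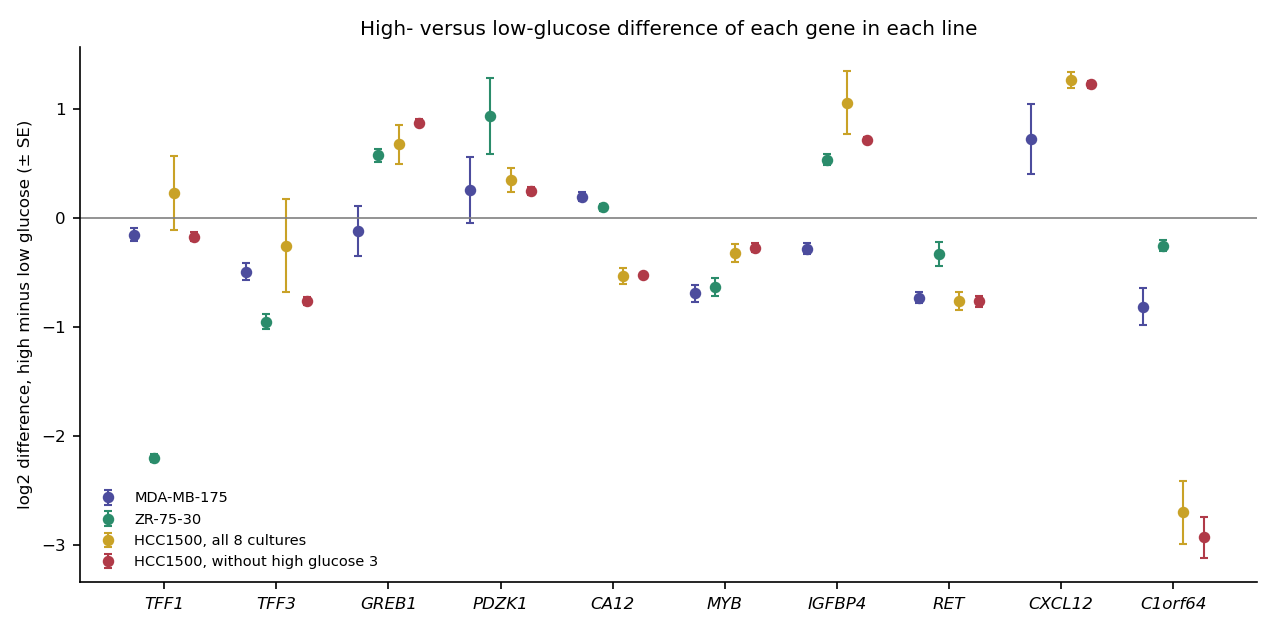
Points are the log2 differences between high and low glucose of the 10 genes and whiskers their SE, for each line, with HCC1500 drawn both with all 8 cultures and without high glucose 3. MYB, RET and C1orf64 lie below 0 in each line, IGFBP4 and CA12 lie on both sides, and TFF1 in HCC1500 goes from 0.23 to -0.17 when the library is left out. CXCL12 has no point in ZR-75-30, where it had 0 reads.

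Genes whose pattern was most like that of TFF1 were ranked by Pearson's r of log2 values over the 24 libraries, among 13310 genes. These libraries share 3 lines, so r mostly follows differences between 6 groups and is a description. Among the 5 highest were RBM8A (0.958), EXOSC8 (0.939), WARS (0.938) and SEC61A1 (0.933). Without the third high-glucose culture of HCC1500 the 5 highest included VDR (0.960), RBM8A (0.958), HELLS (0.948) and HAUS2 (0.947). Among the other 9 genes TFF3 was the most like TFF1, at 0.798 and rank 202, or 0.796 and rank 435 without that culture. IGFBP4 (-0.646), CA12 (-0.652) and GREB1 (-0.714) ran against it, and without that culture r was -0.847 for IGFBP4, -0.656 for CA12 and -0.774 for GREB1.

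The receptor and its cofactors were read next, as genes that do not belong to the 10. ESR1 fell in MDA-MB-175, from 335 ± 3.59 to 258 ± 3.66 (log2 change -0.38 ± 0.05; limma, adjusted p = 2.67e-05). In ZR-75-30 it went from 618 ± 20.3 to 570 ± 36.7 and did not pass the test (adjusted p = 0.0553 by limma). In HCC1500 it read 3178 ± 36.1 and 3616 ± 550 and did not pass with all cultures (adjusted p = 0.354 by limma), and it rose to 3890 ± 64.5 without the third high-glucose culture (0.29 ± 0.02, adjusted p = 7.81e-09). HCC1500 thus had the highest ESR1 level, and MDA-MB-175, with the highest TFF1 and TFF3 levels, had the lowest. PGR, the progesterone receptor gene, was expressed in HCC1500, at 655 ± 27 and 719 ± 223, and without the third culture it rose to 829 ± 44.8 (log2 change 0.34 ± 0.04; limma, adjusted p = 1.29e-06). In the other lines PGR averaged 2.39 or less.

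FOXA1 fell in MDA-MB-175 (2253 ± 87.2 to 2001 ± 63.7, log2 change -0.17 ± 0.04) and in ZR-75-30 (2853 ± 70.8 to 2294 ± 74.1, -0.31 ± 0.04), with adjusted p-values by limma of 0.0056 and 8.22e-07. In HCC1500 its difference was -0.05 with all cultures, -0.10 without the third, and 0.02 when that comparison was rescaled by the median of ratios, so its direction there depends on the scaling. GATA3 fell in ZR-75-30 (1931 ± 42.3 to 1785 ± 40.5, -0.11 ± 0.03; limma, adjusted p = 0.0117) and, without the third culture, in HCC1500 (3571 ± 70.1 to 2666 ± 199, -0.42 ± 0.04; adjusted p = 1.89e-08), where it did not pass with all cultures (2867 ± 433; adjusted p = 0.0665). It read 1329 and 1372 in MDA-MB-175.

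Among all 27 receptors and cofactors, 4 rose and 3 fell in MDA-MB-175 (11.9% and 13.7% of all genes) and 2 rose and 9 fell of 26 in ZR-75-30 (23.4% and 22.7%). In HCC1500, 1 rose and 1 fell (7.46% and 13.0%), and without the third high-glucose culture 13 rose and 6 fell (20.9% and 37.7%). The list's median log2 change was 0.01, -0.10, 0.13 and 0.12 in that order, against -0.02, 0.01, -0.06 and -0.12 over all genes. NCOA3, a p160 coactivator, rose in MDA-MB-175 (1109 ± 74.6 to 1334 ± 27.6, 0.27 ± 0.05; limma, adjusted p = 5.65e-04). NCOA2, of the same family, fell in ZR-75-30 (1450 ± 108 to 1058 ± 56.2, -0.45 ± 0.05; adjusted p = 7.55e-07), and CREBBP, an acetyltransferase, rose there (619 ± 29.6 to 711 ± 25.6, 0.20 ± 0.04; adjusted p = 0.00127). TFAP2C, a luminal transcription factor, fell in HCC1500 (2091 ± 77.6 to 1497 ± 119, -0.48 ± 0.08; adjusted p = 0.00394), also without the third culture (-0.54). GPER, a membrane estrogen receptor, rose in MDA-MB-175 (6.14 to 11.8; limma, adjusted p = 0.0402) and HCC1500 (200 to 342, log2 change 0.71; adjusted p = 0.0480), or to 278 without the third culture (0.48). In MDA-MB-175 that call was lost when low-glucose culture 1 or 2 or any high-glucose culture was left out, with log2 changes from 0.58 to 1.03. In HCC1500 it was lost when any culture other than the third high-glucose one was left out (0.66 to 0.81).

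Of 60 other genes induced by estrogen in breast cancer cells, 58 had a row. In MDA-MB-175, 15 rose and 20 fell of 57 tested, where 11.9% of all genes rose and 13.7% fell. In ZR-75-30, 18 rose and 13 fell of 52 (23.4% and 22.7% of all genes), and in HCC1500, 12 rose and 12 fell of 58 (7.46% and 13.0%). Without the third high-glucose culture 25 rose and 20 fell (20.9% and 37.7%). Median log2 changes were -0.09, 0.04, 0.10 and 0.00, against -0.02, 0.01, -0.06 and -0.12 over all genes. Genes of this list moved both ways in each line, as did genes at large. The shares of all genes cover every gene tested and were not matched to the list for level. Of 51 tested in all 3 lines, 2 rose in each (STC2 and UGCG) and 3 fell in each (ABCA3, KIAA1324 and MYBL1), against 1.81% and 3.32% of all genes. Without the third high-glucose culture of HCC1500 it was 5 that rose in each (ADCY9, CTSD and FAM102A besides) and 6 that fell in each (AGR2, KRT19 and XBP1 besides), against 3.73% and 6.74% of all genes. These genes were named after their values were seen.

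The largest changes in MDA-MB-175 were rises of WISP2, a matricellular protein gene (3.23 ± 1.03 to 11.5 ± 2.09; limma, adjusted p = 3.74e-04), and HSPB8, a small heat shock protein gene (264 ± 23.8 to 683 ± 29.5; adjusted p = 1.86e-10). The largest falls there were of HEY2, a Notch target (35.5 to 20.7), and RAPGEFL1 (208 to 123). In ZR-75-30, AREG, an EGF receptor ligand, rose from 10.2 ± 8.49 to 46.6 ± 3.77 (log2 change 2.75 ± 0.60; limma, adjusted p = 9.71e-04) and RAB31 from 9.11 to 18.3 (0.94 ± 0.22). RBBP8, a DNA end resection factor, fell there from 112 to 59.2 (-0.92 ± 0.12), and MYBL1, a relative of MYB, from 140 to 79.0 (-0.83 ± 0.10). In HCC1500, KCNK5, a potassium channel gene, rose from 14.9 ± 1.49 to 63.7 ± 10.2 (2.01 ± 0.15; limma, adjusted p = 1.03e-04), or to 58.7 without the third culture, and WISP2 from 9.84 to 42.7, or to 30.1. EGR3, an immediate early transcription factor, fell from 222 to 115 (-0.96 ± 0.13, and -0.84 without that culture). TIAM1, a RAC exchange factor, fell from 232 to 128 (-0.93 ± 0.24, and -0.66), and its call was lost when any low-glucose culture was left out (-0.90 to -0.96).

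**Figure D4:**
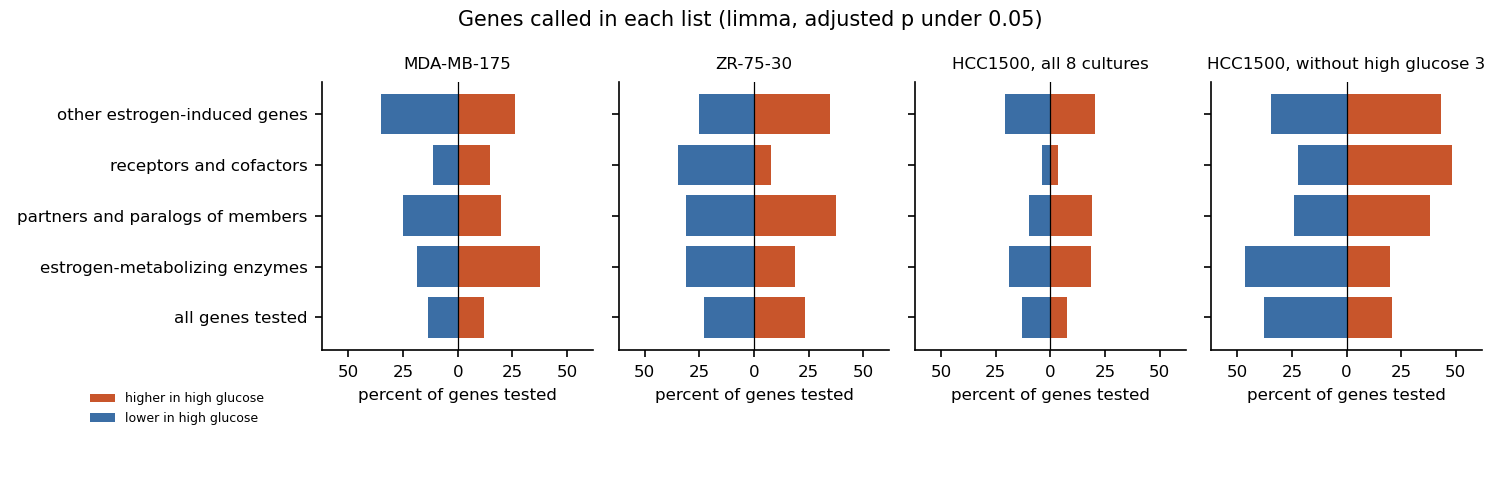
Bars give the percent of tested genes called higher (orange, right) or lower (blue, left) in high glucose, for 4 gene lists and for all genes, in each line and in HCC1500 without high glucose 3. Each list has calls on both sides, and leaving out the third high-glucose culture widens the bars of every list and of all genes in HCC1500, from 7.46% higher and 13.0% lower to 20.9% and 37.7% over all genes.

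Partners of the 10 genes gave the following. For CXCL12, the receptor CXCR4 fell in each line: from 708 ± 43.8 to 494 ± 16.2 in MDA-MB-175 (log2 change -0.52 ± 0.05; limma, adjusted p = 1.59e-06), from 268 ± 8.17 to 144 ± 10.5 in ZR-75-30 (-0.89 ± 0.07; adjusted p = 2.65e-09) and from 435 ± 21.4 to 237 ± 53.3 in HCC1500 (-0.89 ± 0.14; adjusted p = 0.00313), or to 211 without the third culture. The second receptor, CXCR7, which takes up the chemokine, rose in ZR-75-30 from 51.3 ± 1.22 to 85.6 ± 9.54 (0.72 ± 0.11; limma, adjusted p = 2.27e-05). It read 777 and 770 in MDA-MB-175. In HCC1500 it rose from 699 to 929 (adjusted p = 0.0460 by limma), or to 849 without the third culture. That call was lost when any low-glucose culture or high-glucose culture 1 or 4 was left out (0.38 to 0.43).

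For RET, the coreceptor GFRA1 was expressed in HCC1500, at 3626 ± 86.1 and 3907 ± 367, and rose without the third culture, to 4087 ± 94.8 (log2 change 0.17 ± 0.03; limma, adjusted p = 1.83e-05). It averaged 12.9 and 12.1 in MDA-MB-175 and under 1 in ZR-75-30. Its ligand GDNF rose in HCC1500 from 14.3 ± 1.68 to 35.1 ± 2.55 (1.24 ± 0.14; limma, adjusted p = 6.34e-04), or to 35.6 without the third culture, and had 0 reads in the other lines. ARTN, another ligand of the family, rose in MDA-MB-175 from 14.5 ± 3.86 to 28.0 ± 4.33 (0.92 ± 0.20; adjusted p = 0.00273) and read 22.5 and 28.6 in HCC1500, or 22.8 for the latter without the third culture. PSPN, also of this family, rose in ZR-75-30 from 3.87 to 11.3 (adjusted p = 8.83e-04 by limma). PSPN was called higher in MDA-MB-175 as well, and in HCC1500 without the third culture. NRTN averaged 3.13 to 5.12 in the 6 groups, or 2.91 in high-glucose HCC1500 without the third culture.

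For IGFBP4, the receptor IGF1R rose in MDA-MB-175 (318 ± 8.13 to 381 ± 14.3, log2 change 0.26 ± 0.05; limma, adjusted p = 0.00106) and ZR-75-30 (179 ± 6.14 to 225 ± 11.5, 0.33 ± 0.06; adjusted p = 1.99e-04). In HCC1500 it went from 2127 ± 41.5 to 3177 ± 880 and did not pass (adjusted p = 0.115 by limma), and it rose to 3617 ± 36.8 without the third culture (0.77 ± 0.03; adjusted p = 3.40e-14). PAPPA, the protease that cleaves IGFBP4, averaged 2.91 or less in every group. IGFBP3, a further binding protein, fell in MDA-MB-175 (135 ± 5.42 to 91.3 ± 17.7, -0.58 ± 0.12; limma, adjusted p = 0.00146) and rose in HCC1500 (17.4 ± 0.241 to 49.1 ± 11, 1.43 ± 0.17; adjusted p = 6.73e-04), or to 43.7 without the third culture. Its relative IGFBP4 had the same pair of directions in these lines, and the difference between lines was not tested.

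MYBL2, the relative of MYB that drives cell cycle genes, fell in ZR-75-30 from 703 ± 27 to 298 ± 29.0 (log2 change -1.24 ± 0.06; limma, adjusted p = 1.48e-11) and in HCC1500 from 1210 ± 55.5 to 477 ± 147 (-1.38 ± 0.18; adjusted p = 0.00112), or to 403 without the third culture. MYBL2 was called lower in MDA-MB-175 as well. Relatives of CA12 were scarce: in ZR-75-30, CA2 rose from 0.839 to 4.54 (adjusted p = 0.00138 by limma) and CA9, which hypoxia induces, fell from 4.22 to 0.212 (adjusted p = 4.15e-04), both within a few reads of 0. Over the 33 symbols of the list, 25 had a row. In MDA-MB-175, 4 rose and 5 fell of 20 tested (11.9% and 13.7% of all genes), and in ZR-75-30 6 and 5 of 16 (23.4% and 22.7%). In HCC1500 it was 4 and 2 of 21 (7.46% and 13.0%), or 8 and 5 without the third culture (20.9% and 37.7%). The medians were -0.10, 0.34, 0.09 and 0.01, against -0.02, 0.01, -0.06 and -0.12 over all genes.

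Enzymes that make or break down estrogens were read last. CYP1A1, which hydroxylates estradiol, rose in each line: from 167 ± 8.33 to 598 ± 16.3 in MDA-MB-175 (log2 change 1.84 ± 0.05; limma, adjusted p = 1.07e-12), from 1.61 ± 0.913 to 19.0 ± 3.72 in ZR-75-30 (2.99 ± 0.30; adjusted p = 1.92e-07) and from 45.9 ± 7.92 to 187 ± 27.9 in HCC1500 (2.0 ± 0.16; adjusted p = 1.23e-04), or to 174 without the third culture. HSD17B7, which reduces estrone to estradiol, fell in ZR-75-30 from 257 to 204 (adjusted p = 1.79e-04 by limma). HSD17B14, which oxidizes estradiol, rose there from 2.18 to 14.2 (adjusted p = 2.42e-05 by limma).

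In MDA-MB-175, SULT2B1, a steroid sulfotransferase, fell from 257 ± 35.1 to 141 ± 10.6 (log2 change -0.85 ± 0.09; limma, adjusted p = 3.18e-06), and CYP19A1, the aromatase gene, rose from 1.26 to 4.96 (adjusted p = 0.00446). The low-glucose mean of CYP19A1 lay near the limit of detection, which was 1.2 to 2.01 in those libraries. HSD17B4 fell from 864 to 788 there (adjusted p = 0.0458 by limma), a call that was lost when any culture but low-glucose culture 1 or high-glucose culture 2 was left out (-0.10 to -0.15). In HCC1500 it fell from 2251 ± 40.0 to 1509 ± 86.0 (-0.58 ± 0.07; limma, adjusted p = 9.41e-04), or to 1472 without the third culture. HSD17B4 was called lower in ZR-75-30 as well. SULT2B1 was called lower there too, and in HCC1500 once the third high-glucose culture was left out. UGT2B15, which conjugates steroids, fell in HCC1500 from 117 to 80.4 (-0.54; limma, adjusted p = 0.0137), or to 76.4 without the third high-glucose culture, a call lost without low-glucose culture 1 or 3 (-0.52 each). SULT1E1, the estrogen sulfotransferase, rose from 6.38 to 13.4 (adjusted p = 0.0351 by limma), or to 12.7 without that culture, a call lost without low-glucose culture 1, 2 or 3 or high-glucose culture 2 or 4 (0.77 to 1.05). Of the list's 19 symbols, 18 had a row. In MDA-MB-175, 6 rose and 3 fell of 16 tested (11.9% and 13.7% of all genes), and in ZR-75-30 3 and 5 of 16 (23.4% and 22.7%). In HCC1500 it was 3 and 3 of 16 (7.46% and 13.0%), or 3 and 7 of 15 without the third culture (20.9% and 37.7%). The medians were -0.02, 0.08, -0.26 and -0.43, against -0.02, 0.01, -0.06 and -0.12 over all genes.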

How the data were processed

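RNA-Seq of 24 cultures gave a single deposited table of normalized values (unit: signal). According to the study's methods the authors trimmed reads with Trimmomatic, aligned them with TopHat, used gene models of Ensembl, normalized counts with edgeR and tested differences with DESeq2. The methods name hg19 and the submitters' processing notes name hg38 and edgeR, so the build of the table is unsettled. The deposited values are not CPM: library sums ran from 5559394 to 7594840, and each value was a whole multiple of its library's smallest nonzero value (tolerance 0.01; 100.0% of values), so that depths of 9140024 to 17998819 reads were recovered. The limit of detection of 3 reads covers counting error only. A total of 9 lines with a split symbol were read from their ends, 87 symbols stood under more than 1 gene ID (none in the gene lists), and 260 genes were at 0 throughout. Strand use in counting is not given in the sources used here. Coordinates and exon lengths come from GENCODE 44 lifted to GRCh37 (18183 IDs, 96.3%, matched).

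Groups came from titles and treatment labels. Each line was fitted on its own in limma 3.58.1 (R 4.3.3) on log2(value + 1) after a filter that asked for 0.5 or more in 4 cultures, and p-values were Benjamini-Hochberg adjusted over all genes tested. A call is an adjusted p under 0.05. Fold changes of low genes are understated on this scale. Alternatives were other pseudocounts and filters, median-of-ratios and TMM scaling, edgeR 4.0.16 and DESeq2 1.42.0 on recovered reads, a replicate block, 1 fit over 24 libraries and leaving out each culture. The limma and edgeR code was tested on simulated data. Summaries used Python 3.11.15, numpy 2.4.6, pandas 2.3.3 and matplotlib 3.10.9. Promoter letters were searched on both strands of RefSeq windows.

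The members and gene lists were chosen with earlier results of these data known. Named genes were the 10 members, ESR1, PGR, FOXA1 and GATA3, the partners of RET, CXCL12 and IGFBP4, TFF2, the 5 genes most like TFF1, and, per list and line, the 2 largest called rises and falls without overlap. Changes of the genes named in every line are given where 1 condition averaged at least 10. Some genes that the rules on named genes reach are not reported here.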

Additional observations from a re-analysis of the deposited data

Results flagged for a closer look

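A culture was singled out where its gap to the nearest of the other 3 took more of the group's whole range than Dixon's critical value for 4 samples, which chance alone gives in about 1 in 20 groups. This held in 20 of 182 groups of 4, and in 12 of the 20 the culture was HCC1500 high glucose 3. For the estrogen-induced genes it read 1951 for TFF1, 8401 for TFF3, 751 for PDZK1, 3581 for IGFBP4 and 1529 for CXCL12, each the highest of its group, and 1428 for GREB1, the lowest. These are values as deposited. Against the other 3 cultures, the library's median log2 difference was 0.29 over 12521 genes, above the 0.15 of CXCL12. Among other named genes this library was the highest for CXCR4 (317), CXCR7 (1170), GPER (535) and MYBL2 (698) and the lowest for ESR1 (2796) and IGF1R (1859).

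The remaining 8 groups singled out were 6 in ZR-75-30 and 2 in MDA-MB-175. In ZR-75-30, low glucose 4 was the lowest for TFF3 (8785), low glucose 2 the highest for GREB1 (240), high glucose 2 the highest for MYB (101) and CA2 (6.08), high glucose 1 the highest for IGF1R (242), and high glucose 3 the highest for CA9 (0.85). In MDA-MB-175, high glucose 4 was the lowest for GATA3 (1304) and high glucose 3 the lowest for HSPB8 (639).

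Among the 10 genes, and among other named genes in the lines for which the report gives their changes, 4 genes had every culture of one line moving one way and every culture of another the opposite way, with HCC1500 taken without high glucose 3. These differences between lines were not tested. CA12 had log2 differences of 0.20 in MDA-MB-175 and 0.10 in ZR-75-30 against -0.52 in HCC1500. IGFBP4 had -0.28 in MDA-MB-175 against 0.54 in ZR-75-30 and 0.72 in HCC1500. ESR1 had -0.38 in MDA-MB-175 against 0.29 in HCC1500, and IGFBP3 had -0.58 in MDA-MB-175 against 1.28 in HCC1500. With the other named genes read in all 3 lines too, NCOA3 (-0.26 in ZR-75-30 against 0.27 in MDA-MB-175 and 0.74 in HCC1500), RBBP8 (-0.31 in MDA-MB-175 and -0.92 in ZR-75-30 against 0.63 in HCC1500) and AREG (-0.37 in HCC1500 against 1.12 in MDA-MB-175 and 2.75 in ZR-75-30) had such opposite directions as well.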

How the results depend on the processing

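Results of HCC1500 depended on high glucose 3. Leaving out each culture in turn, 4 to 10 of the 10 estrogen-induced genes chosen were called, 13 to 45 other estrogen-induced genes, 1 to 19 receptors and cofactors, 4 to 13 partners and 2 to 10 enzymes, each highest without high glucose 3. With that culture left out (alternatives chosen after seeing the data), median-of-ratios rescaling gave 52, 23, 14 and 10 for the last 4 lists, and edgeR gave 53, 22, 14 and 10. The 2 calls among receptors and cofactors became 1 with no filter on low values, 4 with median-of-ratios rescaling, TMM-scaled CPM or edgeR, 7 with DESeq2 and 9 in 1 fit over all 24 libraries. In MDA-MB-175 and ZR-75-30 the counts for the 10 genes stayed within 1.5 times under every alternative. In that last fit MDA-MB-175 had 4 calls among receptors and cofactors and 4 among partners (7 and 9 in the fit per line), and ZR-75-30 had 3 among receptors and cofactors (11 in the fit per line). The cause was not tested.

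Single calls among the 10 genes were lost when certain single cultures were left out. The contrast chose these genes, so their calls, here and in the counts above, are a description and nothing is read from them. In ZR-75-30 these were PDZK1 (low glucose 2 or 4 or high glucose 1, 2 or 3, log2 difference 0.75 to 0.97), CA12 (low glucose 1 or high glucose 1, 2 or 3, 0.09 to 0.10) and RET (low glucose 2 or 3 or high glucose 1, from -0.29 to -0.21). In HCC1500 they were GREB1 (each culture but high glucose 3, 0.61 to 0.70), MYB (each low-glucose culture or high glucose 1 or 2, from -0.35 to -0.29) and IGFBP4 (each low-glucose culture, 1.05 to 1.07). TFF1 in HCC1500 reversed without high glucose 3 (range over single cultures left out from -0.17 to 0.39), to -0.05 with median-of-ratios rescaling and -0.05 with edgeR. TFF3 there reversed to 0.02 with edgeR and 0.04 with DESeq2. Differences near 0 also turned: FOXA1 in HCC1500 (0.01 with median-of-ratios rescaling and with DESeq2, and 0.02 for both tools without high glucose 3), CXCR7 in MDA-MB-175 (0.01, 0.01 and 0.01 with median-of-ratios, TMM and DESeq2, 0.02 with edgeR), and, over single cultures left out, CXCR7 (-0.05 to 0.01), GREB1 (-0.32 to 0.02) and GFRA1 (-0.16 to 0.03) in MDA-MB-175 and PGR in HCC1500 (-0.05 to 0.34). The cause was not tested.

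Replicate numbers are shared between conditions. Same-numbered cultures deviated together weakly at most (mean correlations of 0.05, 0.04 and 0.02, from -0.05 to 0.16, against -0.02, -0.01 and -0.01 for other numbers). Values were centered within each condition, which ties the mean for other numbers to that for the same numbers, so it is no independent baseline. Whether same-numbered cultures were handled as pairs cannot be told from these correlations. With the replicate block, HCC1500 had 15 called among the other estrogen-induced genes and 1 among receptors and cofactors, receptors and cofactors called higher in ZR-75-30 went from 2 to 4 and partners called higher in HCC1500 from 4 to 2, and no other total per list and line moved by more than 1.5 times.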

Other observations

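The remaining neighbors of TFF1 on chromosome 21 varied by line. RSPH1, a radial spoke gene of cilia, read 32.9 ± 5.35 in low glucose and 19.4 ± 4.47 in high glucose in MDA-MB-175, with no overlap, but 14.3 ± 1.86 and 13.9 ± 1.57 in ZR-75-30. SLC37A1, a sugar-phosphate transporter gene, read 371 ± 8.28 and, without high glucose 3, 237 ± 13.9 in HCC1500, again with no overlap, and 293 ± 35.4 and 262 ± 6.77 in ZR-75-30, with overlap. RSPH1 and SLC37A1 share 97 exon bases on opposite strands. PDE9A, a cyclic GMP phosphodiesterase gene, read 25.2 ± 6.29 and 41.8 ± 4.53 in ZR-75-30 and averaged 0.192 or less in HCC1500. UMODL1 averaged 3.71 to 7.78 in every group. These genes were taken by position, and their differences were not tested here.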
